A study of Mus musculus with 6 samples.

Results

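The hair shaft keratins, the keratins of the inner root sheath, the keratin-associated proteins and a few of their regulators were examined in healing mouse skin wounds. The genes were chosen by name: every gene with a platform symbol starting with Krtap, and 26 further keratins, hair proteins and transcription factors. A gene was kept where a probe was detected (detection p-value under 0.01 against the negative controls of the array) on at least 1 of 6 arrays, and the brightest probe stood for the gene. Of 62 such genes with an annotated probe, 47 were kept out of 10855 genes measured in all: 31 Krtap genes, 13 keratins, S100a3, Hoxc13 and Dlx3. The other 15 were not detected on any array, and 6 named genes (Gprc5d, Krt32, Krt81, Krt83, Krt85 and Tchh) had no probe assigned to them and were not analysed here.

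A hair is built in the bulb of a growing follicle, where dividing matrix cells turn into the shaft and into the inner root sheath that moulds it. Inner root sheath keratins and the early shaft keratin Krt35 are made low in the bulb, cortex keratins such as Krt31 and Krt34 higher up, and the keratin-associated proteins, which crosslink the keratin filaments, late in shaft differentiation. These genes are switched off when a follicle rests, and β-catenin, through its partners of the LEF/TCF family, is among the signals that set hair matrix cells on this path.

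Each array held RNA of a full thickness dorsal wound from C57/BL6 mice, taken 8 days after injury. In the adenovirus model, mice of 2 months had loxP sites flanking exon 3 of the β-catenin gene (β-Catenin flox/flox), and the wound received adenovirus with Cre, which yields a stabilized β-catenin (1 array), or adenovirus with green fluorescent protein (GFP, 1 array). In the tamoxifen model, all mice carried loxP sites flanking exons 2-6 and were given tamoxifen, and their genotype listed no Cre (tamoxifen control, 2 arrays, 4 months) or the Cre-Esr1 transgene (knockdown, 2 arrays, 5 months). The labels name no promoter for Cre-Esr1, no hair cycle stage and no pooling of animals, so the cells that recombined are not known. In the tamoxifen model age and genotype cannot be told apart. Between 15883 and 16681 of 45281 probes were detected per array. The basal keratinocyte keratin Krt14 read 15.79 to 15.96 (log2 intensity) on all arrays, and Ctnnb1 itself read 11.77 and 12.07 (control pair) against 11.73 and 11.84 (knockdown pair), a difference of -0.13 ± 0.16 (SE; limma, adjusted p = 0.805). Where its probe lies relative to the deleted exons was not analysed here.

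The genes sit mainly on 3 chromosomes. Of the 47, 21 lie in the type I keratin and Krtap stretch of chromosome 11 and 5 in the type II keratin stretch of chromosome 15. Krtap stretches of chromosome 16 hold 12 and 3. A stretch was split where many protein-coding genes lay between neighbouring members, so the 12 and 3 need not be separate loci. Promoter windows of RefSeq (GRCm38.p6, 250 bases before to 50 after the start) were found for 39 of the 47 genes, in 42 windows. The letters TATAAA, searched on both strands, stood in 33 of the 42 windows (78.6%), against 13.6% of all 32851 windows in the table. On the strand of the gene and with its first base 40 to 20 bases before the start, a distance chosen after the matches were seen, TATAAA stood in 23 of 42 (54.8%), against 1.99% of all windows. CTTTGAA, which holds the letters of the LEF/TCF core, stood on either strand in 8 windows (19%, against 5.14% of all) and CTTTGTT in 5 (11.9%, against 5.85%). Each motif was counted on its own, so overlapping matches would count for both. All 3 type I shaft keratins with a window had CTTTGAA, with the outermost match at -244 in Krt31, -247 in Krt33b and -240 in Krt34, and these 3 genes are close relatives. Shown are those 3 cortex keratins, the inner root sheath keratin Krt71 and the Krtap gene Krtap26-1, so that each of the 3 chromosomes is represented, with matches to the 3 motifs in capitals; a match is a description of the letters and no evidence of binding.
Krt34 promoter, chr11:100041505-100041804, minus strand: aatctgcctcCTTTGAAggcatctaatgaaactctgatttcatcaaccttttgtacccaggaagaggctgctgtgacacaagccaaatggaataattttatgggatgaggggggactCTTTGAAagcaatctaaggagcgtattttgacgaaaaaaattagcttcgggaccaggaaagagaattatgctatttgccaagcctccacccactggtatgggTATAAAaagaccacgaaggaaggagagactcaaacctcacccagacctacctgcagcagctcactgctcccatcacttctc
Krt31 promoter, chr11:100050502-100050801, minus strand: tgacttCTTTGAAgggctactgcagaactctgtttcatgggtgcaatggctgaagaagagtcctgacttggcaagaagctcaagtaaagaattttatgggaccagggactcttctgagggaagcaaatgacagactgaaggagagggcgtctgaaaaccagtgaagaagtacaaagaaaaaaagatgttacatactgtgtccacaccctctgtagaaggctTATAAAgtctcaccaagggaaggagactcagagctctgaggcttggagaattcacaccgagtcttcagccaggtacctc
Krt33b promoter, chr11:100029819-100030118, minus strand: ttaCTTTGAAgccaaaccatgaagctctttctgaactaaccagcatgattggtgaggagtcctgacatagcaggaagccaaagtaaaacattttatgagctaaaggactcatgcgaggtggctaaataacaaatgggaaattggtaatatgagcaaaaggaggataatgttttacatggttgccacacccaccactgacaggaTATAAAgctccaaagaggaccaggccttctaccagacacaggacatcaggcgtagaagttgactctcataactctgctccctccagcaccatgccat
Krt71 promoter, chr15:101743048-101743347, minus strand: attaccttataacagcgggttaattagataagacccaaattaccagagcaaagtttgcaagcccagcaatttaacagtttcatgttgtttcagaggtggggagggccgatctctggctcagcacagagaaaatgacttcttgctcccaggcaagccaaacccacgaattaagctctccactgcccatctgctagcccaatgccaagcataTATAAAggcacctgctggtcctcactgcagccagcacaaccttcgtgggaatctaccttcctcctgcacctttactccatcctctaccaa
Krtap26-1 promoter, chr16:88647747-88648046, minus strand: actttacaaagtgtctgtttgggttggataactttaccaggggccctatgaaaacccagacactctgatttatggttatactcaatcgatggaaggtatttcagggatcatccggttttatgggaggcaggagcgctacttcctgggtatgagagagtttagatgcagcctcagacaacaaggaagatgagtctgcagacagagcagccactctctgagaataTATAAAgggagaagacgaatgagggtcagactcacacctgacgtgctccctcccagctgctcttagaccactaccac

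Most hair shaft genes were detected in 1 wound only. Tamoxifen control replicate 2 was the highest of the 6 arrays for 46 of the 47 genes, where 12.3% of all genes were highest on that array, and 31 of the 47 were detected there and on no other array, against 1.03% of all genes. The exception was Krtap19-5, which was highest on the GFP array. Detected hair genes numbered 47 on this array, 9 on its partner control, 14 and 13 on the knockdown arrays, 11 with GFP virus and 8 with Cre virus. Genes that entered only through this array had to be high on it, so these counts describe the array and are not a test. In RNA of whole wounds, fewer hair-forming cells and less RNA per cell cannot be told apart.

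**Figure D1:**
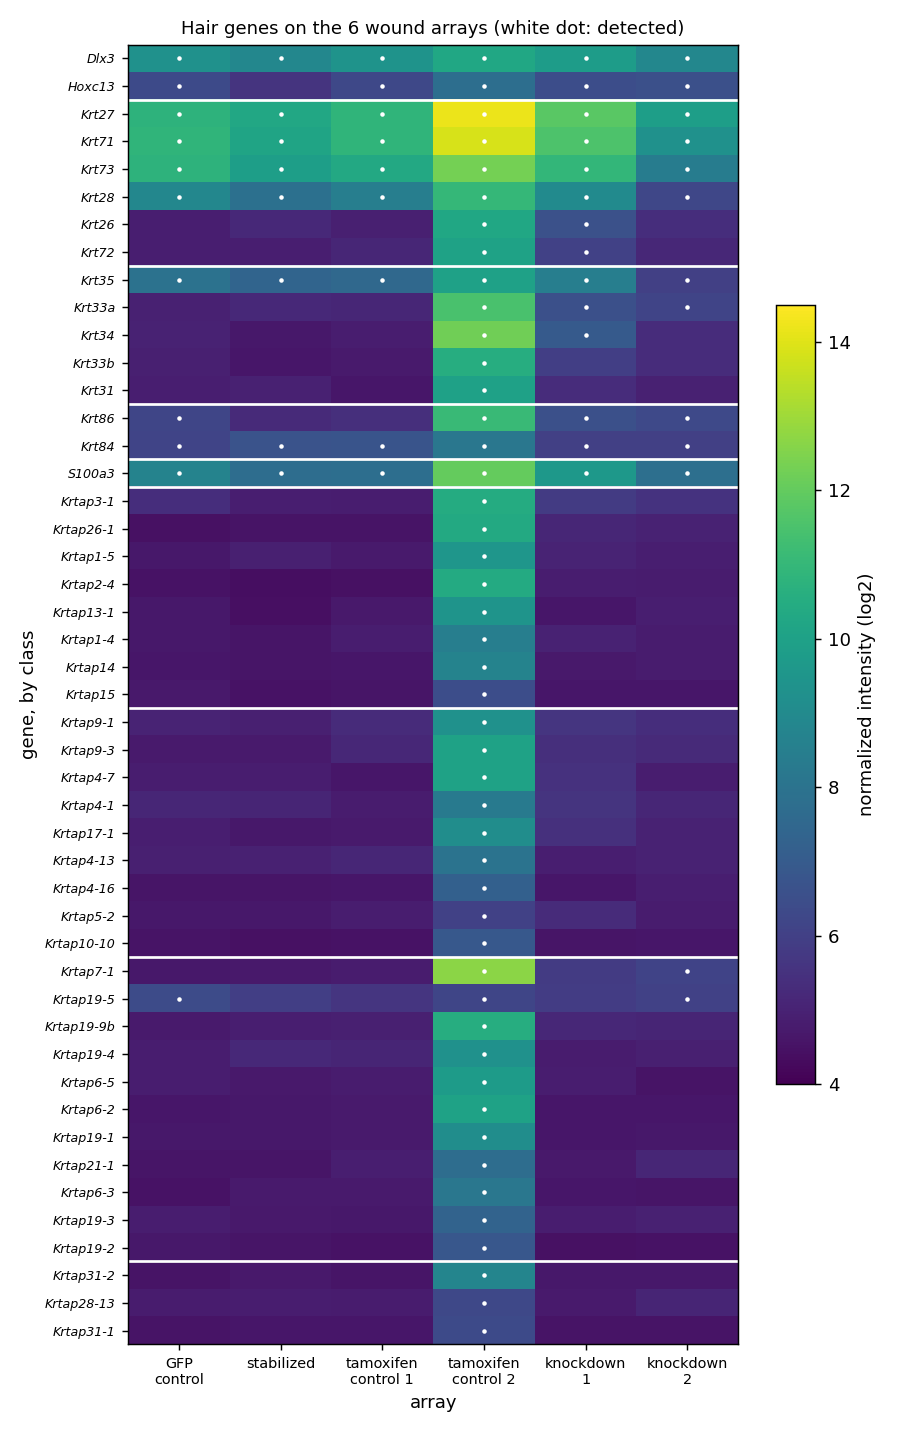
Normalized log2 intensity of the 47 hair genes (vertical axis, grouped by class) on the 6 arrays (horizontal axis), with a white dot where the probe was detected. The column of tamoxifen control replicate 2 is the brightest in 46 of 47 rows, while most Krtap genes have no dot on any other array.

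Of the 6 inner root sheath keratins, 4 were detected in every wound. Krt71, a type II keratin of all sheath layers, read 10.88 with GFP virus, 10.14 with Cre virus (stabilized), 10.86 and 13.86 in the tamoxifen control pair, and 11.56 and 9.32 in the knockdown pair (log2 intensity, replicates 1 and 2 in order). Control replicate 2 was thus highest and knockdown replicate 2 lowest, with the other 4 wounds between them. Krt27, a type I partner of the sheath keratins, read 10.78, 10.31, 10.88, 14.18, 11.81 and 9.91 in the same order. Krt73, of the sheath cuticle, read 10.77, 9.88, 10.33, 12.31, 10.96 and 8.41, and its other probe put the arrays in the same order. Krt28 read 8.88, 7.87, 8.49, 10.99, 9.01 and 6.24. In these 4 genes knockdown replicate 1 was second after control replicate 2, the stabilized wound was next to last and knockdown replicate 2 was last. The knockdown replicates lay 1.91 (Krt27) to 2.77 (Krt28) apart on the log2 scale. Knockdown replicate 1 lay above control replicate 1, so the groups overlapped in all 4.

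The sheath keratins Krt26 and Krt72 were detected on only 2 arrays. Krt26 read 10.26 on control replicate 2 and 6.60 on knockdown replicate 1, and 4.89 to 5.37 on the arrays where it was not detected. Krt72, another sheath cuticle keratin, read 10.04 and 6.03 on those same arrays and 4.88 to 5.19 elsewhere. Krt25 was not detected anywhere, and its probe read 4.56 (control replicate 2) to 5.19 (GFP). Whether that probe can respond was not tested.

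Krt35, the shaft keratin that comes first in the hair matrix, was detected on all 6 arrays like those 4 sheath keratins, whereas the cortex keratins were detected on fewer. Krt35 read 7.95 (GFP), 7.38 (stabilized), 7.56 and 10.00 (tamoxifen control pair), and 8.49 and 6.01 (knockdown pair). Control replicate 2 and knockdown replicate 1 again came first, and the stabilized wound and knockdown replicate 2 last. Krt34, a type I cortex keratin, read 12.20 on control replicate 2 and 6.96 on knockdown replicate 1, and 4.67 to 5.34 on the other arrays, where it was not detected. Control replicate 2 was at least 37.9-fold above every other array, each array being taken at no less than its own lowest detected signal (log2 5.96 to 6.15). Krt33a read 11.48 on control replicate 2, 6.55 and 6.17 in the knockdown, and 4.95 to 5.23 elsewhere without detection, a lead of at least 30.5-fold. The close relatives Krt33b and Krt31 were detected on control replicate 2 alone, at 10.53 and 10.02, at least 20.8-fold and 14.6-fold above the rest. Transcripts of such close relatives, and of Krtap genes within a family, may bind each other's probes, so single values are uncertain.

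Among the type II keratins, Krt86 of the cortex went with the other cortex keratins. It read 11.12 on control replicate 2, 6.55 and 6.31 in the knockdown, and 6.20 on the GFP array. On control replicate 1 and the stabilized array it read 5.43 and 5.26 without detection. Its other probe was detected on 2 arrays only, at 10.99 on control replicate 2 and 6.15 on knockdown replicate 1. Elsewhere that probe read 4.82 to 5.69, so detection on the GFP array and knockdown replicate 2 rests on the brighter probe. Krt84, a hard keratin also made in the papillae of the tongue, had another pattern: 6.17 (GFP), 6.67 (stabilized), 6.73 and 8.17 (tamoxifen control pair), and 6.01 and 6.00 (knockdown pair). Both knockdown arrays lay below both controls, at levels close to the limit of detection.

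**Figure D2:**
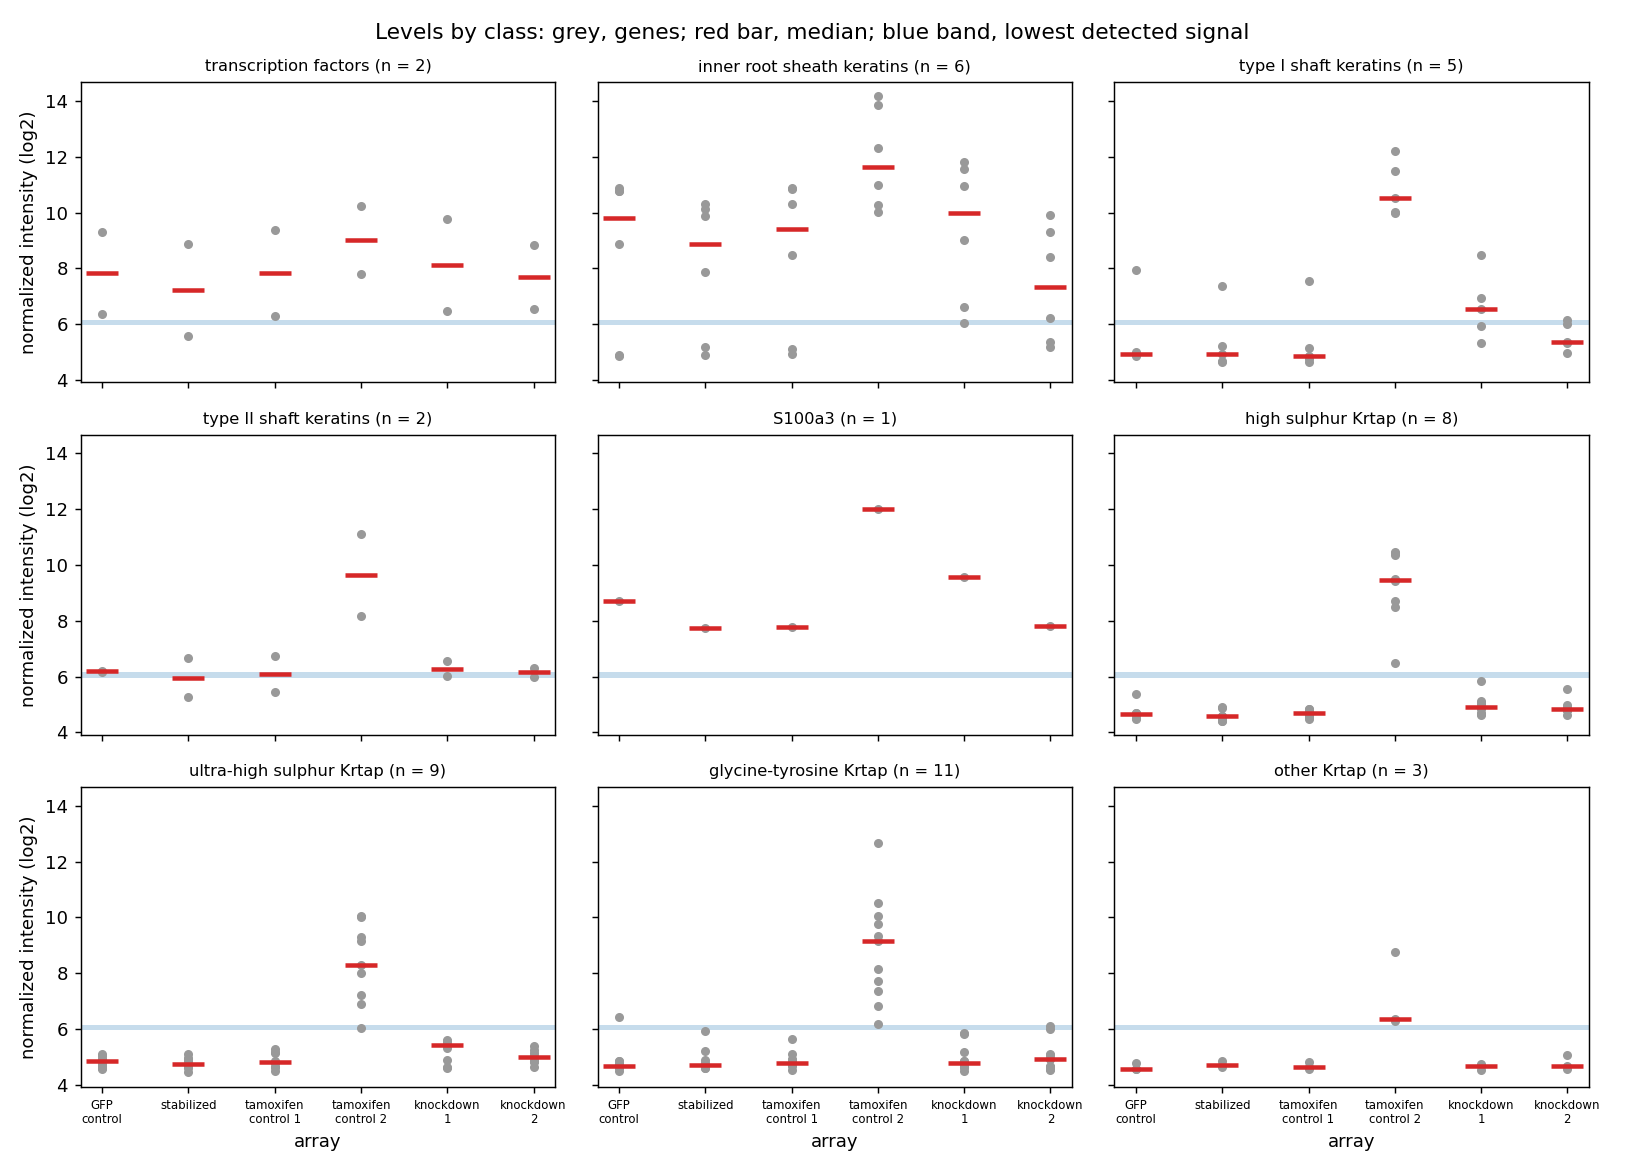
Normalized log2 intensity (vertical axis) on each array (horizontal axis) for each class, with grey points for genes, a red bar for the class median and a blue band for the lowest detected signal of the arrays, 5.96 to 6.15. Inner root sheath keratins lie above the band on all arrays in 4 of 6 genes, and the Krtap classes rise above it mainly on tamoxifen control replicate 2.

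The Krtap genes were grouped into classes by their family numbers, with Krtap10-10 placed among the ultra-high sulphur genes here. All 31 were detected on control replicate 2, 1 on the GFP array, 2 on knockdown replicate 2, and none on the stabilized array, control replicate 1 or knockdown replicate 1. Krtap7-1, a protein rich in glycine and tyrosine, read 12.66 on control replicate 2, 5.83 and 6.09 in the knockdown (detected only in replicate 2), and 4.67 to 4.79 elsewhere, a lead of at least 91.0-fold. Among the other glycine-tyrosine genes Krtap19-9b read 10.52 on control replicate 2 against 4.76 to 5.19 (at least 20.7-fold), and Krtap6-2 read 10.04 against 4.63 to 4.75 (at least 14.8-fold). Krtap19-4 read 9.32 there against 4.79 to 5.23 (at least 8.99-fold). Krtap19-5 stood apart from its family: 6.42 (GFP), 5.94 (stabilized), 5.63 and 6.19 (tamoxifen control pair), and 5.86 and 6.01 (knockdown pair), all close to the limit of detection.

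Of the high sulphur proteins, which are rich in cysteine, Krtap3-1 read 10.48 on control replicate 2 against 4.84 to 5.83 (at least 20.1-fold). Krtap2-4 read 10.42 there against 4.40 to 4.83 (at least 19.3-fold), and Krtap26-1 read 10.37 against 4.47 to 5.11 (at least 18.7-fold). Krtap1-5 read 9.50 against 4.67 to 5.04. The other 4 led by at least 1.27-fold to 9.67-fold. The ultra-high sulphur proteins, still richer in cysteine, gave the same picture. Krtap4-7 read 10.04 on control replicate 2 against 4.63 to 5.48 (at least 14.8-fold), and Krtap9-3 read 10.03 against 4.74 to 5.43 (at least 14.7-fold). Krtap9-1 read 9.31 against 4.94 to 5.62, and Krtap4-1 read 8.31 against 4.82 to 5.59. Krtap5-2 was near the limit, at 6.02 against 4.66 to 5.31. In families not placed in a class here, Krtap31-2 read 8.76 on control replicate 2 and Krtap31-1 and Krtap28-13 read 6.36 and 6.30, against 4.53 to 5.08 elsewhere. A further probe was detected for 8 of the 47 genes. In each it was also highest on control replicate 2, at a lower level than the brightest probe. There the other probe read 8.42 for Krtap26-1, 8.42 for Krtap6-2 and 8.12 for Krtap9-3. The leads given for Krtap26-1, Krtap6-2 and Krtap9-3 are those of the brightest probe and would be smaller by the other.

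The 15 undetected genes gave no signal to compare, and 3 of the 11 undetected Krtap genes came near to it on control replicate 2. Krtap12-1 read 5.91 there, Krtap16-3 5.81 and Krtap24-1 5.77, against 4.57 to 4.96 on the other arrays. Whether the probes of the 15 genes can respond was not tested, so a missing signal does not show that a gene was silent.

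The 2 measured transcription factors were also highest on control replicate 2, by smaller steps. Hoxc13, a homeobox factor needed for hair keratin expression, read 6.38 (GFP), 5.58 without detection (stabilized), 6.28 and 7.80 (tamoxifen control pair), and 6.47 and 6.56 (knockdown pair). Dlx3, a homeobox factor of hair matrix and epidermis, read 9.31, 8.87, 9.38, 10.25, 9.78 and 8.84 in the same order. Control replicate 2 led the next array by 2.36-fold for Hoxc13 and by 1.38-fold for Dlx3. Foxn1 and Msx2, 2 further hair regulators, were not detected on any array. S100a3, a calcium-binding protein of the hair cuticle, read 8.70, 7.74, 7.78, 12.01, 9.59 and 7.83, so that control replicate 2 and knockdown replicate 1 stood above the other 4 wounds.

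Without control replicate 2 the knockdown median over the 47 hair genes changed direction. Most of the genes detected on all 6 arrays kept theirs, with smaller differences. In limma's fit 46 of the 47 hair genes were lower in the knockdown than in the control, with a median log2 difference of -1.82, against 47.1% of all genes below 0 and a median of 0.02 over all genes. Most of the 47 entered through control replicate 2 alone, which pulls them in this direction. None passed Benjamini-Hochberg adjustment over all genes in limma, where 0% of genes passed, and 1 had an unadjusted p under 0.05 (4.22% of all genes were lower at that level). That gene was Krt84, at -1.45 ± 0.48 (SE, n = 2 against 2; limma, adjusted p = 0.439). Krt71 differed by -1.92 ± 1.22 (limma, adjusted p = 0.647), Krt28 by -2.11 ± 1.22 (0.613), Krt27 by -1.68 ± 1.24 (0.690) and Krt73 by -1.63 ± 1.05 (0.651), with the adjusted p in parentheses. Differences were -2.38 ± 2.44 for Krt34, -1.95 ± 2.07 for Krt33a, -2.76 ± 2.56 for Krtap7-1 and -1.53 ± 1.14 for Krt35. S100a3 differed by -1.19 ± 1.49, Hoxc13 by -0.53 ± 0.51, Dlx3 by -0.50 ± 0.43 and Krtap19-5 by 0.02 ± 0.23. Over the 8 genes detected on all 6 arrays the median difference was -1.58, and the control wounds themselves lay a median of 2.47 apart (replicate 2 minus replicate 1, log2).

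Both knockdown arrays lay below both controls in 8 of the 47 genes, where 18.9% of all genes did, and above both in none, where 24.4% of all genes did. Besides Krt84, the 8 genes below both controls were Krtap19-1, Krtap19-2, Krtap19-4, Krtap6-2, Krtap6-3, Krtap31-1 and Krtap4-13. The Krtap genes among them were undetected on 3 of the 4 tamoxifen arrays. For the 46 genes that were highest on control replicate 2, the knockdown could not lie above both controls. The count of none above both is therefore no result about the knockdown. Without control replicate 2 the median difference was 0.13, with 32 genes higher and 15 lower in the knockdown, most of them read from probes that were not detected on the 3 arrays left. Among the genes detected on all 6 arrays, the differences then were -0.03 for Krt27, -0.42 for Krt71, -0.86 for Krt28, -0.64 for Krt73, -0.31 for Krt35 and -0.07 for Dlx3, while S100a3 was at 0.92. No hair gene passed adjustment in limma in that setting, and 7 of the 47 had an unadjusted p under 0.05, as did 13.7% of all genes. Without control replicate 1 the median was -3.80, and 29 of the 47 passed in limma, when 38 genes (0.35%) passed in all, and 43 had an unadjusted p under 0.05, as did 9.68% of all genes. That fit sets control replicate 2 alone against the knockdown and takes the spread from the knockdown pair. The choice of genes had settled its outcome for the 31 that were detected on this array alone, so these counts are no support. Krt84 was lower in the knockdown both ways, with a difference of -0.73 without control replicate 2. Its knockdown values, 6.01 and 6.00, lay at the lowest detected signal of those arrays (6.00 and 5.99). With all arrays but no background correction its difference was -0.72.

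**Figure D3:**
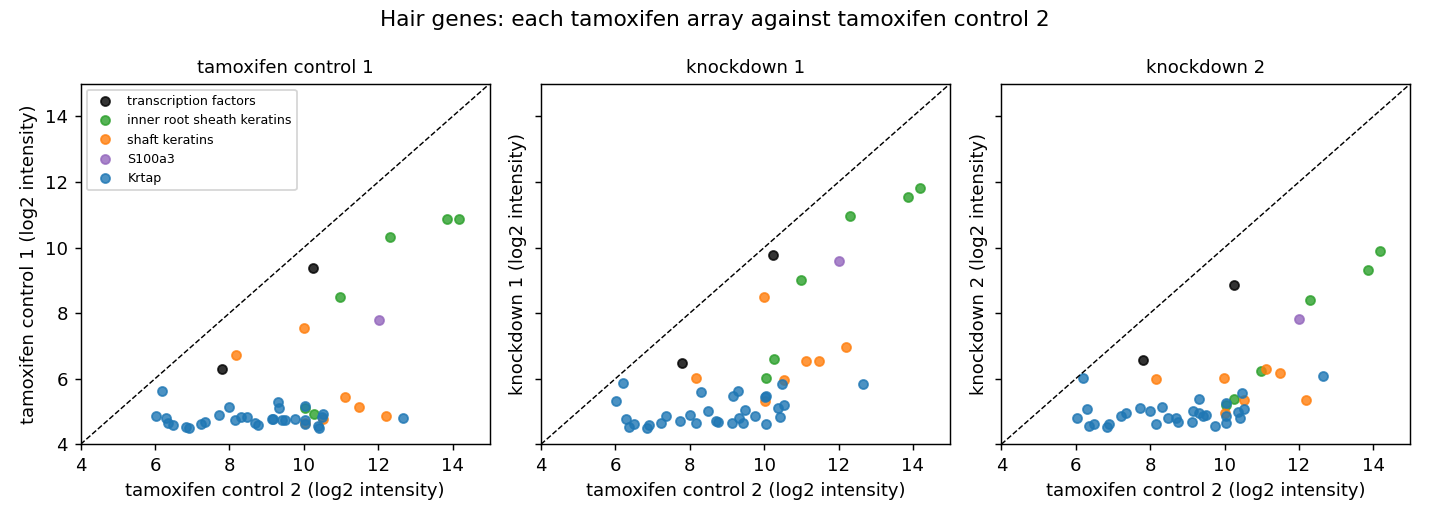
Normalized log2 intensity of each hair gene on tamoxifen control replicate 2 (horizontal axis) against each of the other tamoxifen arrays (vertical axes), with the dashed line at equal levels. All 47 points lie below the line in each panel, and no Krtap gene exceeds 6.09 on the other 3 arrays.

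Knockdown replicate 1 was the next highest wound for the sheath and type I shaft keratins. Of the 9 hair genes detected both there and on control replicate 1, 8 were higher on knockdown replicate 1, where 52.9% of all genes were, and Krt84 was lower. The log2 differences of the 4 sheath keratins among them ran from 0.52 (Krt28) to 0.93 (Krt27), and Krt35 differed by 0.93. Knockdown replicate 2 was below control replicate 1 in the same 4 sheath keratins, by log2 differences of -2.25 (Krt28) to -0.98 (Krt27), and in Krt35 by -1.55. Of the 8 genes detected on all 6 arrays, 1 was above control replicate 1, as were 5615 of 10855 genes in all. The median difference of the 8 was -1.26.

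In the adenovirus pair, few of the hair genes were detected, as on every array but control replicate 2. On either array 11 of the 47 were detected, while 9551 (GFP) and 9864 (stabilized) of 10855 genes were detected in all. Control replicate 1 had 9 detected hair genes, and the knockdown arrays had 14 and 13. The 31 genes detected on control replicate 2 alone could not be among them. Of the 8 detected on all 6 arrays, 7 were lower in the stabilized wound, with a median log2 difference over the 8 of -0.65, while over all 47 the median was -0.06 and 46% of all genes were below 0. With 1 array each there was no replicate check. Krt28 was the single hair gene at least 2-fold lower (-1.01, where 4.82% of all genes were that far down), none was 2-fold higher (3.37% of all genes), S100a3 differed by -0.96, Krt73 by -0.89, Krt71 by -0.74, Krt35 by -0.57, Krt27 by -0.47 and Dlx3 by -0.44, while Krt84 was higher by 0.50. Scaling the arrays to a common median in place of quantile normalization moved the median difference of all genes from 0.04 to 0.56, and with it Krt27 to 0.14, Dlx3 to 0.17, Krt35 to -0.01, Krt71 to -0.14, Krt73 to -0.28, S100a3 to -0.37 and Krt28 to -0.40, all below that shift. Krt28 was then less than 2-fold lower, as it was without background correction (-0.74) and with an offset of 50 (-0.91).

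Other genes of the follicle were read from lists beside these. Of 36 hair matrix regulators 22 were measured. At an unadjusted p under 0.05 in limma, 2 were higher in the knockdown (5.94% of all genes were) and 1 was lower (4.22% of all genes). After adjustment over all genes 0 passed. The medians of the regulators relative to the 6-array mean lay between -0.30 and 0.25. Shh, the ligand of the hair bulb, was lowest on control replicate 2, at 5.84 without detection, against 6.66 to 7.61 elsewhere, and highest on knockdown replicate 1. Fgf5, which ends hair growth, read 6.41 on control replicate 2 and 5.99 on the stabilized array, and 4.77 to 5.23 elsewhere. Sox9 read 12.12 and the co-repressor Hr 12.37 on control replicate 2, against 10.83 to 11.52 and 11.22 to 11.63 on the others.

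Of 27 further structural genes 20 were measured, and 10 of them were highest on control replicate 2, as were 12.3% of all genes. In limma 7 were lower in the knockdown at an unadjusted p under 0.05 (4.22% of all genes were), 0 were higher and 0 passed adjustment. The 7 were the keratins Krt6a, Krt6b, Krt16 and Krt17, which wounded epidermis also makes, the cornified envelope genes Sprr1a and Tgm3, and Pinlyp. Tchhl1, Crym and Padi1 were not among them. The trichohyalin relative Tchhl1 read 10.67 on control replicate 2 against 6.31 to 7.25, the thyroid hormone binding protein Crym, also made in hair cortex, 10.22 against 5.71 to 7.92, and Padi1, which deiminates keratinocyte proteins, 9.14 against 7.33 to 8.22. Of 7 melanocyte genes measured, 5 were highest on control replicate 2, as were 12.3% of all genes. Mlana read 8.53 on control replicate 2 against 7.13 to 7.78, Dct 10.35 against 8.53 to 10.01, Tyrp1 7.93 against 6.03 to 7.05 and Pmel 8.46 against 6.96 to 7.85. Slc45a2 was the fifth of them, at 6.32 against 5.85 to 6.25. Kit and Sox10, which melanocytes share with other cells, were not: Kit read 8.41 there and was highest with GFP virus (8.73), and Sox10 read 6.86 against 6.20 to 8.55. Sox10 was 1.59 ± 0.25 higher in the knockdown (log2, SE; limma, adjusted p = 0.234). The median of all 7 measured melanocyte genes stood at 0.75 (log2, against each gene's own mean) on that array and -0.46 to 0.19 on the others. Cell cycle genes had medians of -0.21 on control replicate 2 and -0.57 on knockdown replicate 2, against 0.43 on control replicate 1, and differentiated epidermis had 0.46 on control replicate 2 against -0.60 to 0.29. Skeletal muscle genes, higher on both knockdown arrays (0.92 and 1.39) than in the controls (-0.52 and 0.19), were lowest in the stabilized wound (-1.81) and did not peak on control replicate 2. The part of these cell types, of the hair cycle stage and of how much unwounded edge was taken in the hair result was not tested.

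**Figure D4:**
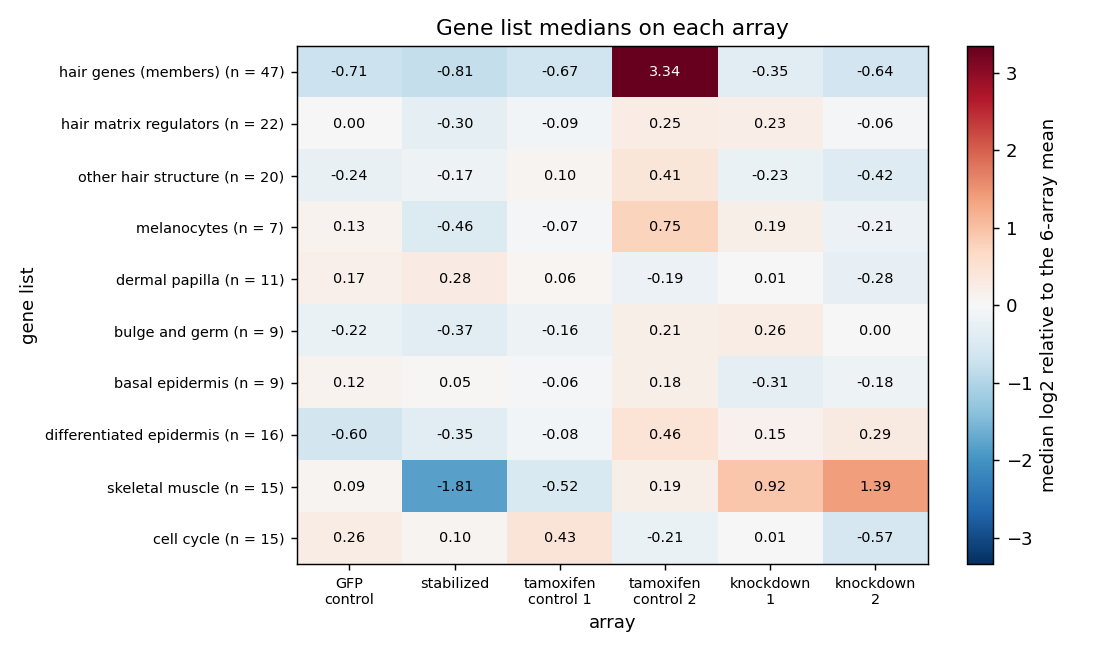
Median of each gene list relative to the 6-array mean of its genes (log2, colour and printed value) for 10 lists (vertical axis) on the 6 arrays (horizontal axis). The hair genes stand at 3.34 on tamoxifen control replicate 2 and between -0.81 and -0.35 on the others, with melanocyte genes at 0.75 on the same array.

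The 20 other genes whose pattern over the 6 arrays was most like the median hair gene had Pearson correlations of 0.944 to 0.998, among 2779 genes spanning at least 1 log2 unit, given as a description since 1 array sets them. They held Krt82, a keratin of the hair cuticle, at 7.23 on control replicate 2 against 4.61 to 5.18. Slc38a5, an amino acid transporter, came first, at 7.71 against 4.61 to 4.77, followed by Calhm4 at 8.38 against 4.63 to 5.38. The epithelial genes Sprr4, Prr9, Crnn and Atp12a and the list members Tchhl1, Cryba4 and Hr were also among them.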

How the data were processed

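The arrays were single-colour Illumina bead arrays, 1 per sample. The deposited probe table gives the average bead signal as an intensity on a linear scale, not normalized between arrays, with a detection p-value per probe and array, per the file headers; the second table holds the authors' log2 values. The submitters' processing notes list R 2.14 together with limma; further settings are not given in the sources used here. Here limma 3.58.1 in R 4.3.3 corrected background with the detection p-values (neqc), added an offset of 16, took log2 and quantile-normalized the 6 arrays, which removes any change shared by most genes; the offset shrinks differences of dim probes. Older gene symbols were replaced by RefSeq's, matched on Entrez numbers. Groups came from titles. The knockdown was tested by lmFit and eBayes over 4 group means, two-sided, Benjamini-Hochberg adjusted over 10855 genes, and the p-values measure the spread between 2 samples a group. Array values are given for regulators, S100a3, the up to 4 members of each class with the highest mean, and the 3 largest differences in each direction. The Krtap classes follow family numbers, not protein composition as planned, since no protein table was used here. The 20 similar genes were the most correlated non-members. The members and lists were chosen with earlier results of these data known. The steps were tested on simulated data. Replicate numbers did not pair samples (correlation of deviations 0.02). The files give no slide or scan for the arrays, so no batch could be examined. The number of arrays limits the precision.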

Additional observations from a re-analysis of the deposited data

How the results depend on the processing

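Under median scaling, no background correction, an offset of 50, the mean of probes, the authors' deposited log2 table, the 4 tamoxifen arrays alone and an intensity trend, the member median in the knockdown stayed below 0 and no hair gene passed adjustment in limma. Stricter detection cut the members, with 16 on at least 2 arrays and 8 on all 6. The genes lower in the knockdown then numbered 15 and 8, and those lower in the stabilized wound 11 and 7, with pair medians of -0.47 and -0.65 against -0.06. Without a filter all 62 genes gave a knockdown median of -1.57.

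Leaving out 1 array in turn, the knockdown median ran from -3.80 to 0.13, the number lower from 15 to 47, the hair genes passing from 0 to 29 and all genes passing from 0 to 38. At an unadjusted p under 0.05 in limma the hair genes ran from 0 (without knockdown replicate 2, with 570 genes in all) to 43 (without control replicate 1, with 1051 in all), against 1 and 1103. Where a control is left out, the lone control is assumed to vary like the knockdown pair, and likewise for a lone knockdown array. Over the arrays left out, Krt33a ran from -5.12 to 1.22, Krt34 from -6.05 to 1.29, Krtap7-1 from -6.70 to 1.17, S100a3 from -3.30 to 0.92, Hoxc13 from -1.29 to 0.23 and Krtap19-5 from -0.26 to 0.31. Likewise Krt27 ran from -3.32 to -0.03, Krt71 from -3.42 to -0.42, Krt28 from -3.50 to -0.72, Krt73 from -2.90 to -0.36, Krt35 from -2.77 to -0.29, Dlx3 from -0.97 to -0.03 and Krt84 from -2.17 to -0.73. Median scaling turned Dlx3 and Krt27 in the pair to 0.17 and 0.14. With the replicate block, which the labels do not back as a pairing, 1266 genes had an unadjusted p under 0.05 against 1103 without it, 0 passed adjustment, and the hair gene median stayed at -1.82.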

Other observations

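Of 112 genes detected on tamoxifen control replicate 2 alone, 31 were hair genes of the lists above. The numbers of genes detected on 1 array alone were 147 with GFP virus, 138 with Cre virus, 37 on control replicate 1, 44 on knockdown replicate 1 and 117 on knockdown replicate 2, and none of those held a hair gene of the rule.

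The keratins of the wound edge had another pattern. Krt6a read 10.60 and 10.11 (tamoxifen control pair) against 8.71 and 8.67 (knockdown pair), Krt6b 15.21 and 14.45 against 13.50 and 12.85, and Krt16 15.66 and 15.21 against 14.67 and 14.44. In these genes both controls lay above both knockdown wounds, as in 18.9% of all genes. Control replicate 2 was not the highest array for any of them. None of these keratins passed adjustment over all genes in limma (adjusted p = 0.234 for Krt6a, 0.275 for Krt6b and 0.297 for Krt16). The follicle stem cell keratin Krt15 read 11.36 (GFP), 9.63 (stabilized), 11.25 and 11.79 (tamoxifen control pair), and 11.82 and 12.66 (knockdown pair). Knockdown replicate 2, which had the least RNA of the inner root sheath keratins Krt71, Krt27, Krt73 and Krt28, thus had the most of this gene. The other measured bulge and germ genes all peaked on other arrays, such as Cd34 in the stabilized wound (9.92) and Sox9 on control replicate 2 (12.12). The median of the 9 measured was 0.003 on knockdown replicate 2 (log2, against each gene's own mean) and -0.37 to 0.26 on the others.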
